A study of Mus musculus with 7 samples.

Results

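The 10 genes described here encode parts of the phototransduction cascade of rod and cone photoreceptors. They were taken by name (Gnat2, Gnb1, Gngt1, Gngt2, Pde6b, Pde6g, Cngb3, Rcvrn, Sag and Arr3) from tables that list 55404 transcripts of 16143 genes, in which they hold 34 transcripts. The retinas were those of ICR mice, an outbred stock, explanted at embryonic day 17.5 and cultured for 2 days. All explants were electroporated with a plasmid for EGFP. The control group (n = 3 libraries) received it together with a control plasmid. The shKmt2f group (n = 4 libraries) received it together with a plasmid for a short hairpin RNA against Kmt2f. Kmt2f is another name of Setd1a, a histone H3 lysine 4 methyltransferase. RNA came from sorted EGFP-positive cells, and cDNA was made from 1 ng of it, so each library stands for a mixture of the cell types that took up plasmid. The labels name 1 hairpin. They leave unsaid whether replicate libraries derive from different litters, explants or sorts, and p-values here therefore describe only library-to-library spread, which may be technical.

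In a photoreceptor, light activates an opsin, the opsin activates the G protein transducin, and transducin removes the inhibitory gamma subunit from a phosphodiesterase that breaks down cyclic GMP. The fall in cyclic GMP closes a cation channel in the outer segment. Phosphorylation of the opsin and binding of arrestin end the response, and calcium-binding proteins such as recoverin adjust its timing. Rods and cones use paralogous genes for most of these steps, and in the mouse retina cones are born before birth while most rods are born around and after it, and outer segments form later.

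Of the 10 genes, Cngb3 and Gnat2, which belong to cones, were higher in the shKmt2f libraries and Gnb1, a transducin beta subunit, was lower. Cngb3 stood at 2.91 times and Gnat2 at 1.68 times the control mean, and Gnb1 at 65.3% of it. The other 6 tested genes did not pass. Pde6b had a log2 fold change of -0.17, and the rest lay between 0.40 (Gngt2) and 0.69 (Rcvrn). Among these were the rod genes Gngt1 and Pde6g, each at 0.67, and Sag at 0.54, while the called Gnat2 had 0.70. The calls alone therefore do not show a rise particular to cone genes. Arr3 stayed below the level needed for the test. Values are in TPM, a share of a library's transcripts corrected for transcript length and here summed over the transcripts of a gene. Tests are limma on log2(TPM + 1) across the 12456 genes that reached 1 TPM in 3 or more libraries, with Benjamini-Hochberg adjustment over all of them and a threshold of 0.05, and fold changes are shKmt2f minus control on that scale, which understates changes at low levels. Of the 9 members tested, 2 rose and 1 fell, against 10.4% of all tested genes called higher and 3.69% called lower, or 14.1% in all. The median log2 fold change was 0.67 over the 9 members and 0.09 over all tested genes.

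Promoters of the set were searched because Otx2 and Crx, homeodomain regulators of photoreceptors that bind sites around TAATCC, were themselves higher in the shKmt2f libraries. RefSeq promoters (250 bases before to 50 bases after the annotated start, GRCm38.p6) were matched by symbol for 6 of the 10 genes. Those of Gngt2, Pde6g, Rcvrn and the called gene Cngb3 were not matched and so not searched. The letters TAATCC, searched on both strands with no other motif, occurred in 3 of these 6 windows, those of Gnat2, Sag and Gngt1, and in 2320 of 32851 windows of the same length in the whole table, or 7.06%. In each of the 3 they lie on the minus strand and read GGATTA on the strand shown, where capitals mark them. They begin 19 bases before the RefSeq start in Gnat2, 87 bases before it in Sag and 44 bases before it in Gngt1. GENCODE places the starts of Gnat2 and Gngt1 further upstream, at 108092789 and 3993792. Measured from those, both matches lie inside the gene, and only that of Sag lies before the start in both annotations. The windows of Gnb1, Pde6b and Arr3 hold no match. The 3 windows with a match are printed, with that of Gnb1, a called gene without a match, beside them.
Gnat2, chr3:108092816-108093115 (plus strand): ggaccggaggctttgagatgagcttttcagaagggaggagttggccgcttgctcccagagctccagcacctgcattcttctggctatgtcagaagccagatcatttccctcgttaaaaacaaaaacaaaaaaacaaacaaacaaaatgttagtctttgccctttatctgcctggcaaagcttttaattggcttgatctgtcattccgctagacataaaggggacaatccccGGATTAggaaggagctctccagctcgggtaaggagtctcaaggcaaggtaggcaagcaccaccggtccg
Sag, chr1:87803430-87803729 (plus strand): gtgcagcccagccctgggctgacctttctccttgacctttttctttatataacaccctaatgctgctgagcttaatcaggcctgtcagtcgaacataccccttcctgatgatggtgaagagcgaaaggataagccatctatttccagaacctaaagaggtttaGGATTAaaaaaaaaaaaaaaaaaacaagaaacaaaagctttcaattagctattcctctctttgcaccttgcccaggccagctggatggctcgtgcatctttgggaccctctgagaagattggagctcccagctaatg
Gngt1, chr6:3993758-3994057 (plus strand): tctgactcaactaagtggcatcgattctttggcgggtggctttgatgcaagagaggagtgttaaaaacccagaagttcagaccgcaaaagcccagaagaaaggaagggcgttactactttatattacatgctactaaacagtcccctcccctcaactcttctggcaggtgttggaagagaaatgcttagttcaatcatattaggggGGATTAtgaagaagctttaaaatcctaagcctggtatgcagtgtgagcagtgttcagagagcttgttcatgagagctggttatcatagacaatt
Gnb1, chr4:155491111-155491410 (plus strand): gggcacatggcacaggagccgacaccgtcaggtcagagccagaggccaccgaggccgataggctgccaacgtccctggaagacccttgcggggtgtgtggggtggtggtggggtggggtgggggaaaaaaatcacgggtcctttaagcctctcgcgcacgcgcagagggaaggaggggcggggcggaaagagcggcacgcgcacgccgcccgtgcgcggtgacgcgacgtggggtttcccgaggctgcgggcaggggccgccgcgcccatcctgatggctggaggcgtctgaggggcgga
A match is a string of letters in a window, and binding was not measured in this study's tables. Of the 3 genes with a match only Gnat2 was called, and a part of Otx2 or Crx in the values was not tested.

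The libraries were checked first. Of the 4 transcripts listed for the targeted gene Setd1a, the longest, of 6487 bases, stood between 0.764 and 0.959 TPM in the control libraries and between 0.328 and 0.432 TPM in the shKmt2f libraries (exact permutation p = 0.0286, two-sided, the smallest that 35 splits of 7 libraries allow). The sum of the 4 was between 7.36 and 11.7 TPM in control and between 4.50 and 8.26 TPM in shKmt2f libraries, which overlap (exact permutation p = 0.400), so the labels are borne out by the longest transcript and not by the gene sum. TPM keeps no read depth, so the precision behind a low value is unknown. Markers of neural retina were present. Summed over a list, retinal progenitor markers stood at 1444.1 to 1696.8 TPM in control and 1141.7 to 1268.9 TPM in shKmt2f libraries, and 12 photoreceptor regulators at 741.4 to 1026.6 and 1335.9 to 1725.7 TPM. Most of the difference in the progenitor sum lay in Hes5, Dapl1 and Ccnd1. Otx2 and Neurod1 made up most of the regulator sum, and its list shares Prdm13 with the amacrine list. Lens markers summed to at most 0.502 TPM, and of the pigment epithelium list only Dct was above 1 TPM. In bulk RNA, fewer cells of a type and less RNA per cell cannot be told apart.

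**Figure D1:**
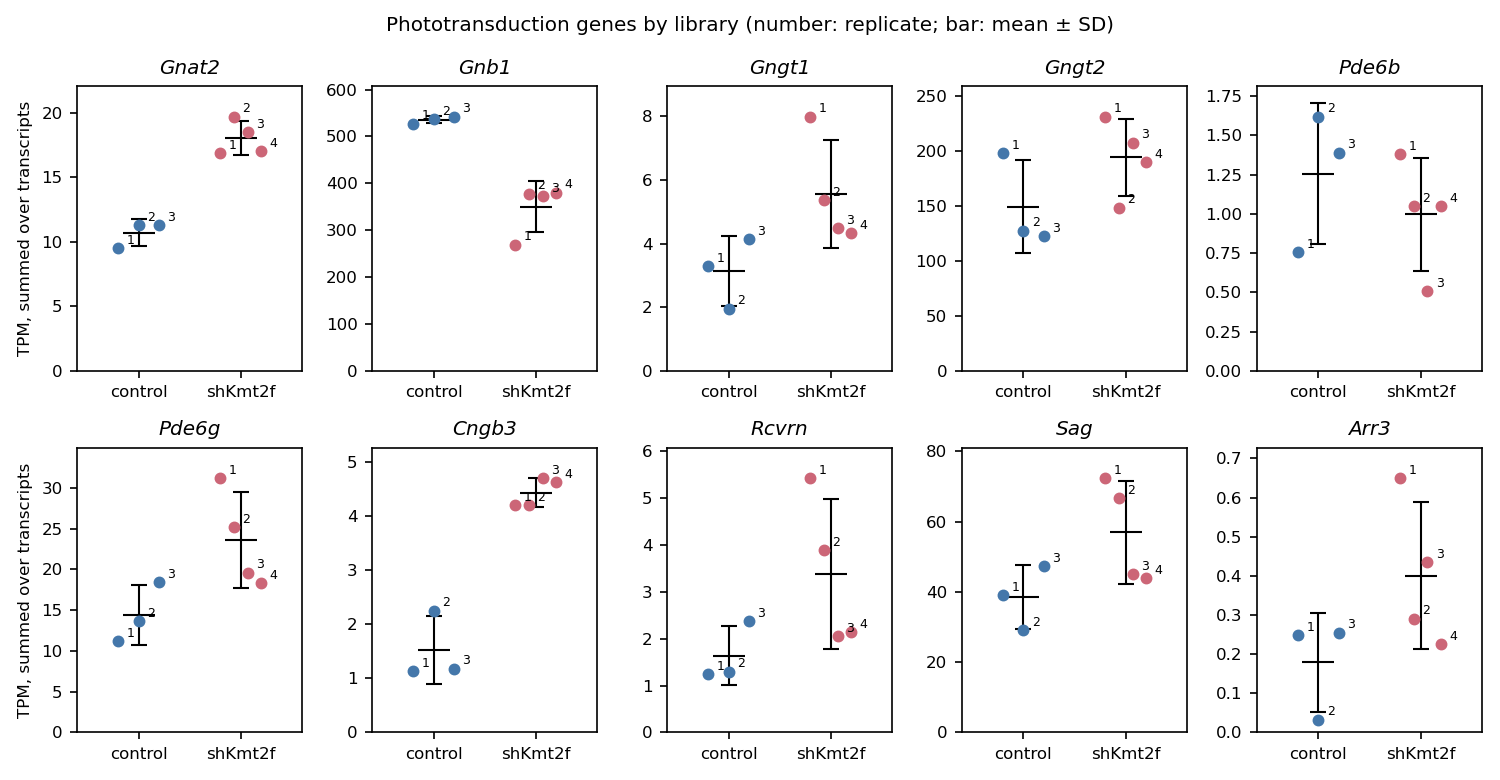
Level of each of the 10 genes in TPM, summed over transcripts, in the 3 control and 4 shKmt2f libraries. Points are libraries with their replicate number and bars give the mean ± SD. The groups do not overlap for Gnat2, Gnb1, Gngt1 and Cngb3, and every Gnb1 value of the shKmt2f group lies below every control value.

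By level the genes spanned a wide range. Gnb1 was the highest at a mean of 429.9 TPM over the 7 libraries, followed by Gngt2 at 175.4, Sag at 49.1, Pde6g at 19.6, Gnat2 at 14.9, Gngt1 at 4.51, Cngb3 at 3.18, Rcvrn at 2.64, Pde6b at 1.11 and Arr3 at 0.306 TPM. In this order the library range of Pde6g (11.2 to 31.2 TPM) overlaps those of both its neighbours, Sag and Gnat2, and from Gngt1 down to Arr3 each range overlaps the next. The ranges of Gnb1, Gngt2 and Sag lie apart from one another, and that of Gnat2 lies above that of Gngt1. The cone opsin gene Opn1sw, which is no member, had between 11.2 and 32.5 TPM.

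Transducin is the heterotrimer that relays the signal from opsin to phosphodiesterase. Gnat2 (ENSMUSG00000009108, chromosome 3, 108092789 to 108101432 of GRCm38), its alpha subunit in cones, had 9.54, 11.3 and 11.3 TPM in control replicates 1 to 3 and 16.9, 19.7, 18.5 and 17.0 TPM in shKmt2f replicates 1 to 4. All 4 shKmt2f libraries lie above all 3 control libraries, and the mean went from 10.7 ± 1.00 (SD, n = 3) to 18.0 ± 1.31 TPM (SD, n = 4), a log2 difference of 0.70 (SE 0.13, adjusted p = 0.0188 by limma). Leaving out control replicate 1, or shKmt2f replicate 1, 2 or 3, ended the call, with limma adjusted p from 0.0516 to 0.0587 and a log2 fold change of at least 0.63. Its promoter window, printed above, is the one with the match closest to the RefSeq start. Gnat1, the rod alpha subunit, is no member and stood at 6.58 ± 1.10 and 6.61 ± 1.63 TPM (log2 fold change -0.01, SE 0.20, adjusted p = 0.985 by limma). Within a library the ratio of Gnat2 to Gnat1 was 1.67 ± 0.411 in control and 2.87 ± 0.830 in shKmt2f libraries, an overlap of the groups (exact permutation p = 0.0857, or 0.129 adjusted over 3 such ratios).

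The Gnat2 sum rests on partial transcript models. A processed transcript of 1152 bases carried 53.8% of the control TPM and stood at 5.75 ± 0.368 and 9.65 ± 0.866 TPM, and a coding model of 808 bases with an incomplete coding sequence carried 40.3%, at 4.31 ± 0.615 and 6.91 ± 0.611 TPM. The model with the complete coding sequence, of 2054 bases, stood at only 0.441 ± 0.118 and 0.971 ± 0.359 TPM. For these 3 transcripts, the last of them below the test's limit, the shKmt2f values lay above all controls, as did those of 14.6% of tested transcripts. No single Gnat2 transcript passed the same limma model fitted to 37024 transcripts (adjusted p = 0.0528 for the 1152-base and 0.0790 for the 808-base transcript). In the authors' deposited table the 1152-base transcript has q = 0.0236 and an effect of 0.43 on the natural log scale. The authors' q-values, here and below, come from their own test of these same libraries and are no independent support. What share of all transcripts has a low q in their test was not analysed here.

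Gnb1 (ENSMUSG00000029064, chromosome 4, 155491361 to 155559269) encodes the beta subunit of rod transducin and of many other G proteins, and many cell types express it. The control libraries had 527.6, 538.0 and 542.6 TPM and the shKmt2f libraries 269.6, 378.2, 372.8 and 380.2 TPM. The controls were close together, all shKmt2f libraries were lower, and shKmt2f replicate 1 was the lowest. The mean fell from 536.1 ± 7.66 to 350.2 ± 53.8 TPM, with a log2 difference of -0.63 (SE 0.13, adjusted p = 0.0261 by limma). Without control replicate 1 or 3 or shKmt2f replicate 2, 3 or 4 the limma adjusted p was between 0.0512 and 0.0759 and the log2 fold change between -0.67 and -0.62. Of the 13 retinal progenitor markers 3 fell (Ccnd1, Hes5 and Dapl1) and 0 rose, against 3.69% of all tested genes called lower and 10.4% higher. By sign, 9 of the 13 log2 fold changes were negative and 4 positive. The positive ones were Sox2, Hes1, Pax6 and Six6, at 0.03, 0.10, 0.11 and 0.37, none of them called. The part of a change in progenitors in the Gnb1 values was not tested.

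The fall of Gnb1 was seen across most of its 8 listed transcripts. For 6 of them the log2 fold change was negative, and for 5 the groups did not overlap, against 6.97% of all tested transcripts with lower values of that kind. The transcript of 2832 bases, which carries the complete coding sequence of 1020 bases, went from 74.0, 83.0 and 92.1 TPM in control to 34.6, 45.5, 32.6 and 27.9 TPM in shKmt2f libraries. Of the 25 tested transcripts of the set it was 1 of the 2 that passed, against 2.24% of all tested transcripts, and it stood at 42.3% of control (log2 fold change -1.23, SE 0.17, adjusted p = 0.0213 by limma), where 0.794% of tested transcripts were called lower. Its call was lost without control replicate 1 or 3 or shKmt2f replicate 1, 3 or 4, with limma adjusted p between 0.0561 and 0.0756. Short models carried most of the Gnb1 sum. Those of 726, 500 and 812 bases, of which the first and the third retain an intron, held 31.8%, 23.1% and 21.1% of it in control and stood at 71.3%, 71.3% and 66.4% of control in the shKmt2f group. The share of the 2832-base transcript in the Gnb1 sum was 14.0%, 15.4% and 17.0% in control and 12.8%, 12.0%, 8.73% and 7.35% in shKmt2f libraries. The shares do not overlap, but the exact permutation test gave p = 0.0857. Models of 925 and 1058 bases, at 2.68 and 1.03 TPM in control, had positive log2 fold changes of 0.14 and 0.35. In the authors' test of the same libraries the 2832-base transcript has an effect of -0.96 and q = 7.56e-17. There 3 other Gnb1 transcripts have q of 3.86e-05, 3.92e-04 and 0.0403.

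**Figure D2:**
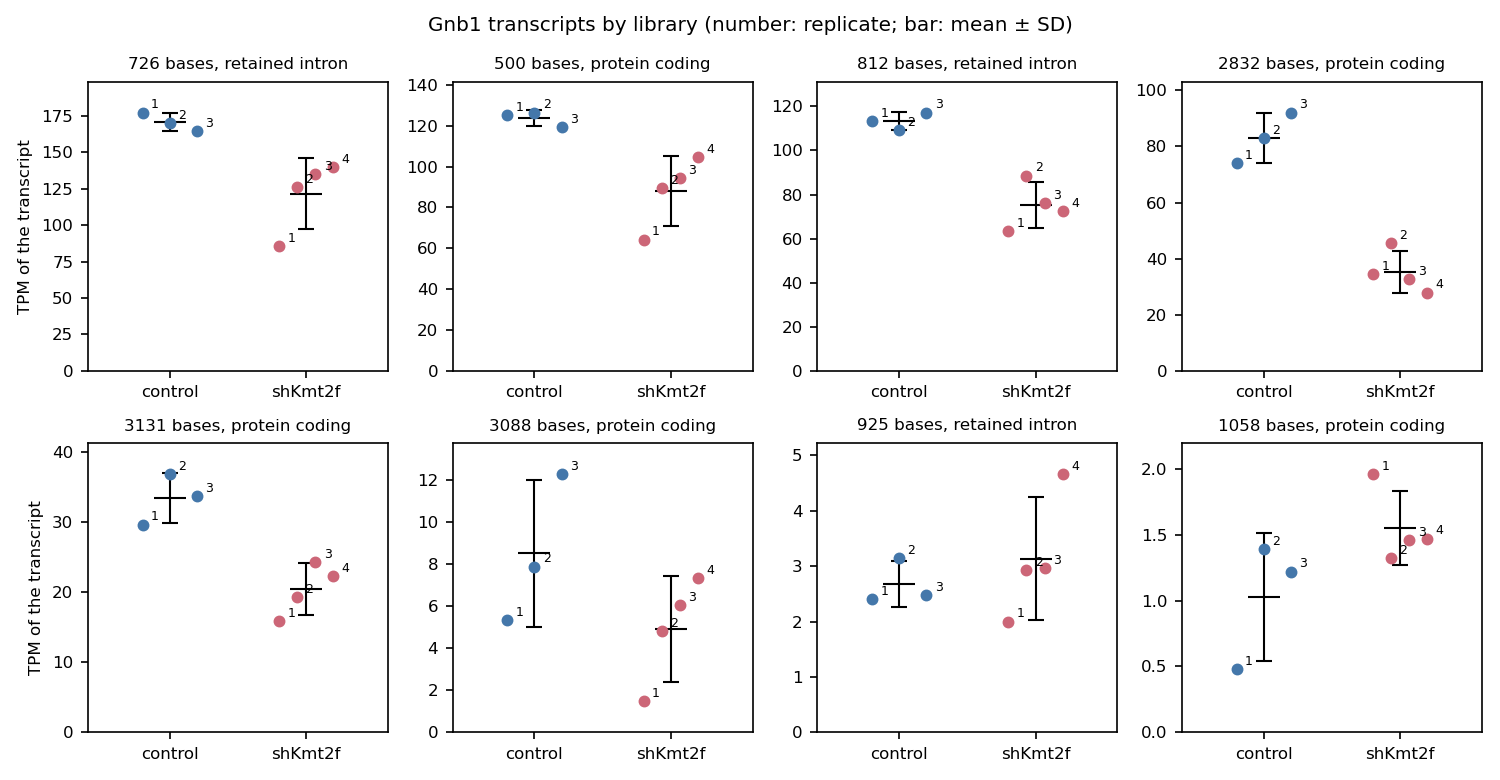
TPM of each of the 8 Gnb1 transcripts in the 3 control and 4 shKmt2f libraries, ordered by control level, with replicate numbers beside the points and mean ± SD as bars. In the 4 highest transcripts and in that of 3131 bases every shKmt2f library lies below every control library, and the 2832-base transcript has the lowest ratio to control, 0.42.

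No other beta subunit passed. Gnb3, the beta subunit of cone transducin and of bipolar cells, stood at 114.3 ± 21.9 and 151.4 ± 16.3 TPM (log2 fold change 0.41, SE 0.15, adjusted p = 0.0901 by limma). It passed after correction for GC content, at 0.63 with limma adjusted p = 0.0283. The ratio of Gnb1 to Gnb3 was 5.31, 5.18 and 3.89 in control and 1.61, 2.36, 2.87 and 2.57 in shKmt2f libraries, a log2 difference of -1.04 with no overlap (exact permutation p = 0.0286, or 0.0857 adjusted over the 3 ratios). Of the TPM of Gnb1 to Gnb5 together, Gnb1 made up 54.1% ± 1.92 in control and 42.4% ± 4.12 in shKmt2f libraries, and Gnb3 11.5% ± 1.67 and 18.5% ± 2.91. Gnb2, a broadly expressed paralog, stood at 288.4 ± 17.4 and 266.4 ± 13.9 TPM (limma adjusted p = 0.437). Among 17 genes of G protein beta and gamma subunits, Gnb1 was the 1 that fell and Gng13, a gamma subunit of ON bipolar cells, the 1 that rose, from 6.12 ± 1.17 to 13.7 ± 2.52 TPM (limma adjusted p = 0.0178). Over all tested genes 3.69% were called lower and 10.4% higher.

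The gamma subunits of transducin are Gngt1 in rods and Gngt2 in cones. Gngt1 (ENSMUSG00000029663, chromosome 6, 3993792 to 3997436) had 3.29, 1.96 and 4.14 TPM in control and 7.99, 5.37, 4.49 and 4.33 TPM in shKmt2f libraries. The groups do not overlap, but by a narrow margin between control replicate 3 and shKmt2f replicate 4, and the log2 difference of 0.67 (SE 0.25) did not pass (limma adjusted p = 0.103). After correction for GC content it was -0.01 (limma adjusted p = 0.986). Gngt2 (ENSMUSG00000038811, chromosome 11, 95837216 to 95845734) had 198.3, 127.8 and 122.6 TPM in control and 231.7, 148.7, 208.0 and 190.5 TPM in shKmt2f libraries. The groups overlap because control replicate 1 was higher than shKmt2f replicates 2 and 4, and the log2 difference was 0.40 (SE 0.20, adjusted p = 0.217 by limma). It reached 0.70 with limma adjusted p = 0.0368 after correction for GC content and length. Of its 5 coding transcripts, all with the same coding length of 207 bases, that of 563 bases carried 61.8% of the control sum. The one of 573 bases had 17.0, 6.41 and 3.36 TPM in control and 0.833, 0.709, 5.72 and 0 TPM in shKmt2f libraries, which overlap (limma adjusted p = 0.137).

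Phosphodiesterase 6 is the effector that breaks down cyclic GMP. Pde6b (ENSMUSG00000029491, chromosome 5, 108388391 to 108432397), a catalytic subunit of rods, was near the lower limit, with 0.755, 1.62 and 1.39 TPM in control and 1.38, 1.05, 0.510 and 1.05 TPM in shKmt2f libraries. The groups overlap (log2 fold change -0.17, SE 0.21, adjusted p = 0.608 by limma). Pde6g (ENSMUSG00000025386, chromosome 11, 120447605 to 120453500, minus strand), the inhibitory gamma subunit of rods, had 11.2, 13.7 and 18.4 TPM in control and 31.2, 25.2, 19.6 and 18.3 TPM in shKmt2f libraries. Here control replicate 3 reached the level of shKmt2f replicate 4, and the gene sum did not pass (log2 fold change 0.67, SE 0.22, adjusted p = 0.0779 by limma).

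Of the 3 Pde6g transcripts, the groups were apart for the coding one. The coding transcript of 900 bases had 4.54, 4.75 and 8.36 TPM in control and 16.9, 13.3, 11.2 and 9.85 TPM in shKmt2f libraries, with no overlap and 2.18 times the control mean (log2 fold change 1.02, SE 0.25, adjusted p = 0.0684 by limma over transcripts). It is the only coding transcript of Pde6g, so the sum over coding transcripts holds these same values. In the test over genes that sum passed, at the same log2 fold change of 1.02 (limma adjusted p = 0.0258). The 2 tests differ in the features fitted and adjusted over, so the pass is no further support. The 2 processed transcripts, of 731 and 2250 bases, stood at 6.78 ± 2.40 and 9.16 ± 3.11 TPM and at 1.77 ± 0.717 and 1.59 ± 0.425 TPM, both with overlapping groups. The coding transcript made up 40.5%, 34.5% and 45.5% of the Pde6g sum in control and 54.2%, 52.9%, 57.1% and 53.9% in shKmt2f libraries. These shares do not overlap (exact permutation p = 0.0286, or 0.0571 adjusted over the 2 shares examined here). For this transcript the authors' deposited table gives q = 0.00681 and an effect of 0.71.

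Cngb3 (ENSMUSG00000056494, chromosome 4, 19280850 to 19510623), the beta subunit of the cone channel gated by cyclic nucleotides, showed the largest fold change of the 9 tested genes. Its single listed transcript, of 4708 bases in 18 exons, had 1.13, 2.25 and 1.18 TPM in control and 4.20, 4.20, 4.70 and 4.62 TPM in shKmt2f libraries. The 4 shKmt2f values are close together and lie above all controls, of which replicate 2 is the highest. The mean rose from 1.52 ± 0.630 to 4.43 ± 0.267 TPM, a log2 difference of 1.13 (SE 0.18, adjusted p = 0.0129 by limma). This call was kept without any 1 library, with limma adjusted p of at most 0.0473. The log2 fold change was 0.64 once corrected for GC content and 0.51 once corrected for GC content with length, both still called (limma adjusted p = 0.0274 and 0.0389). In the test over transcripts it passed at limma adjusted p = 0.0395, where 1.44% of tested transcripts were called higher, and in the authors' deposited table it has an effect of 1.04 and q = 2.60e-06. The transcript call was lost without control replicate 1 or 3 or any 1 shKmt2f library, with limma adjusted p between 0.097 and 0.115. Its channel partner Cnga3 was below the level for the test, between 0.114 and 0.396 TPM in all libraries.

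Recoverin and the arrestins act in recovery and shut-off. Rcvrn (ENSMUSG00000020907, chromosome 11, 67695326 to 67703333), a calcium sensor that inhibits the opsin kinase, had 1.25, 1.30 and 2.37 TPM in control and 5.43, 3.89, 2.06 and 2.15 TPM in shKmt2f libraries. It was high in shKmt2f replicates 1 and 2, while replicates 3 and 4 lay below control replicate 3 (log2 fold change 0.69, SE 0.29, adjusted p = 0.141 by limma). Sag (ENSMUSG00000056055, chromosome 1, 87803680 to 87845158), the rod arrestin, had 39.0, 29.2 and 47.3 TPM in control and 72.4, 66.6, 45.0 and 43.9 TPM in shKmt2f libraries. The same shKmt2f libraries were high, and the groups overlap (log2 fold change 0.54, SE 0.23, adjusted p = 0.136 by limma). Of its 7 transcripts the coding one of 1719 bases carried 64.3% of the control sum and stood at 24.8 ± 5.90 and 38.3 ± 12.9 TPM. Another coding transcript, of 1584 bases with the same coding length of 1209 bases, was listed at 0 TPM in control replicate 2 and shKmt2f replicate 2 and between 4.10 and 7.84 TPM in the other 5 libraries. Arr3 (ENSMUSG00000060890, chromosome X, 100605497 to 100618493), the cone arrestin, had 0.249, 0.0326 and 0.255 TPM in control and 0.650, 0.291, 0.436 and 0.226 TPM in shKmt2f libraries. All are below 1 TPM and the groups overlap (difference of 0.90 on log2(TPM + 0.1), exact permutation p = 0.143).

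**Figure D3:**
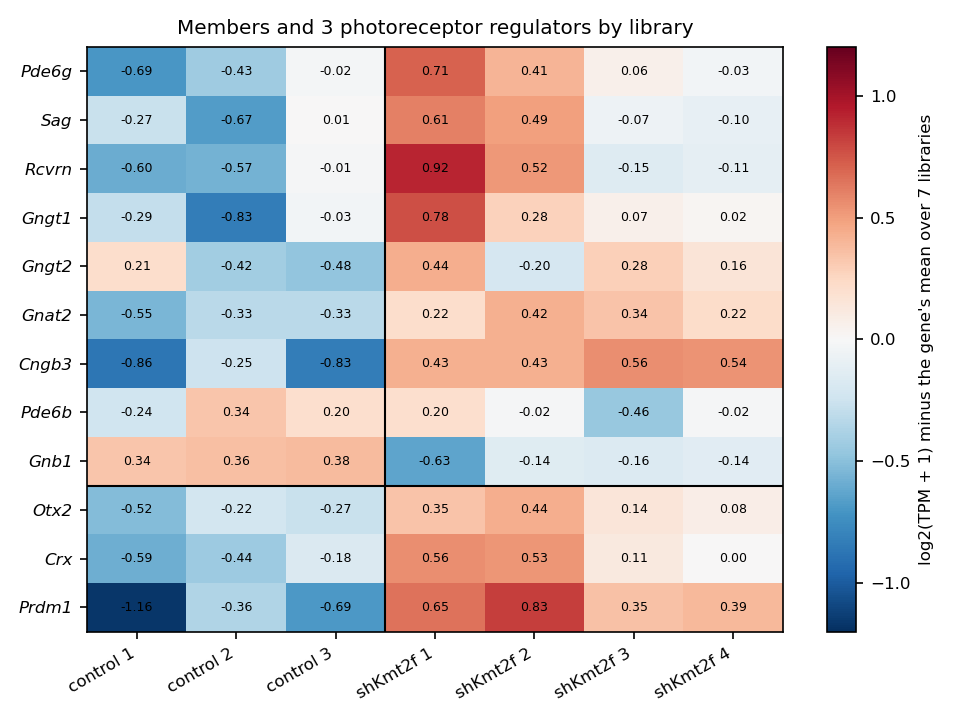
Each cell gives log2(TPM + 1) of a gene in a library minus that gene's mean over the 7 libraries, for the 9 tested members and, below the line, Otx2, Crx and Prdm1. Pde6g, Sag, Rcvrn and Gngt1 are highest in shKmt2f replicates 1 and 2 (up to 0.92 for Rcvrn), Gnat2 and Cngb3 are raised in all 4 shKmt2f libraries, and Gnb1 is lowered in all 4, most in replicate 1 at -0.63.

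The genes thus differed in which libraries they were high in. For Pde6g, Sag, Rcvrn and Gngt1, shKmt2f replicates 1 and 2 were the highest of the 7 libraries, which was noticed in the values and held for 4 of the 9 tested members and 17.6% of all tested genes. In these 4 genes control replicate 3 was the highest control. Gnat2 and Cngb3 did not show it, with all 4 shKmt2f libraries at like levels. Crx, with 54.2, 60.3 and 72.5 TPM in control and 121.5, 118.7, 88.8 and 82.2 TPM in shKmt2f libraries (log2 fold change 0.70, adjusted p = 0.0353 by limma), was also highest in shKmt2f replicates 1 and 2, and its part in the order of the members was not tested. Separation of groups was found for 4 of the 9 tested members (3 higher, 1 lower), against 19.2% of tested genes with all shKmt2f values higher and 9.67% with all lower, or 28.9% in all.

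The rest of the pathway was read from a list of 26 further genes, of which 21 have rows and 10 were tested. Of these 10, Rgs9 rose and 0 fell, a share near the 10.4% of all tested genes called higher, and the median log2 fold change was 0.37. Rgs9, part of the complex that speeds transducin inactivation, had 0.433, 0.541 and 0.738 TPM in control and 1.26, 1.14, 1.59 and 1.07 TPM in shKmt2f libraries (log2 fold change 0.53, SE 0.15, adjusted p = 0.0473 by limma). It reached 1 TPM only in shKmt2f libraries, so it could enter the test only by being high there, and its call was lost under 11 of 15 alternatives. Unc119, a carrier of transducin alpha subunits, stood at 140.2 ± 14.4 and 175.4 ± 17.1 TPM and Pdc, a phosphoprotein that binds transducin beta and gamma, at 78.9 ± 6.72 and 107.8 ± 15.1 TPM. In both the groups do not overlap, but neither passed (limma adjusted p = 0.0956 and 0.0550). Unc119 passed after correction for GC content (0.55, limma adjusted p = 0.0211), whereas Pdc then had a log2 fold change of 0.06. Pdc passed without control replicate 2 (limma adjusted p = 0.041) and with coding transcripts only (0.0422). Gnb5, the beta subunit bound by Rgs9, had limma adjusted p = 0.619, Pde6d, a carrier of prenylated proteins, 0.962, and Opn1sw 0.530.

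**Figure D4:**
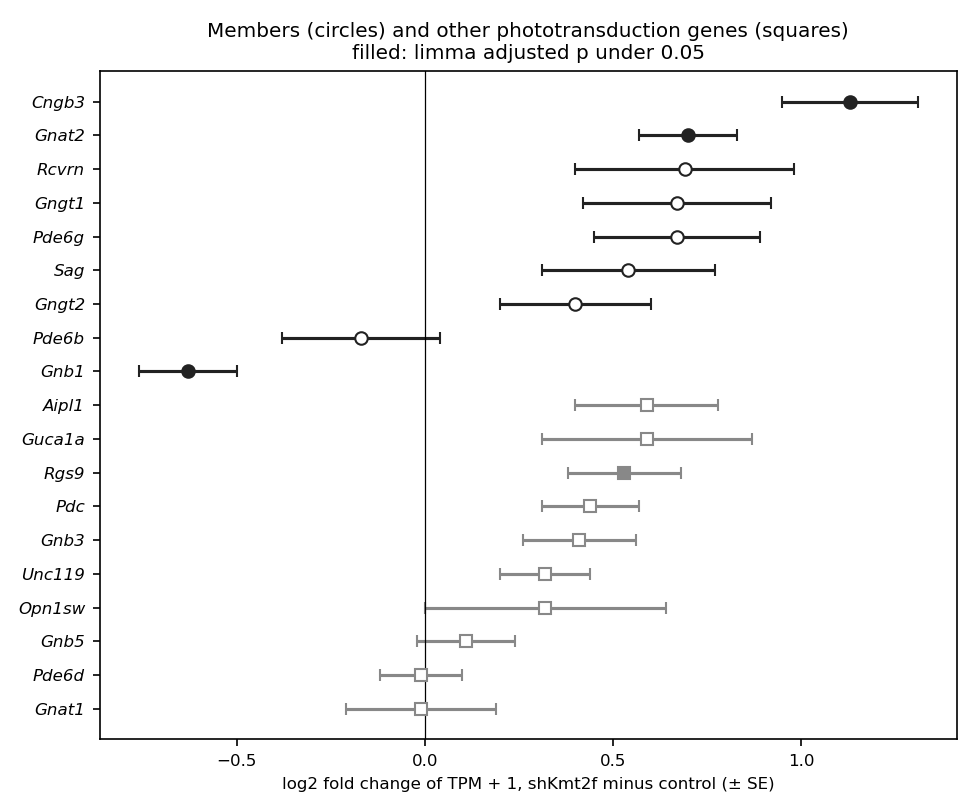
log2 fold change of TPM + 1, shKmt2f minus control, with its SE from limma, for the 9 tested members (circles) and the 10 tested further phototransduction genes (squares); filled symbols passed at an adjusted p of 0.05. Cngb3, Gnat2 and Rgs9 are filled to the right of 0 and Gnb1, at -0.63, is filled to the left, while Gnat1 lies at -0.01.

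Photoreceptor genes outside the cascade were read from 2 further lists. Of 11 tested regulators 5 rose and 0 fell, against 10.4% of all tested genes called higher and 3.69% called lower. By sign, 6 of the 11 log2 fold changes were positive and 5 negative, the lowest -0.18. Those that rose include Neurod1, from 164.5 ± 64.5 to 434.1 ± 65.5 TPM, Prdm1, from 37.3 ± 10.4 to 91.2 ± 14.6 TPM, and Otx2, from 370.0 ± 40.5 to 557.9 ± 65.4 TPM. Nrl, the regulator of rod fate, stood at 7.99 ± 2.71 and 7.53 ± 1.05 TPM (limma adjusted p = 0.918). Nr2e3, Rxrg and Thrb, of the same list, did not pass either. Their log2 fold changes were -0.18, -0.04 and -0.04 (limma adjusted p = 0.783, 0.911 and 0.953). The values of Nrl and of these genes were chosen after they were seen. Among genes for photoreceptor structure, Impg2, of the matrix between photoreceptors, rose from 9.44 ± 5.89 to 27.7 ± 7.31 TPM (limma adjusted p = 0.0326). Prom1, a protein of disc membranes, stood at 42.6 ± 12.4 and 63.8 ± 4.37 TPM, and Rbp3, a carrier of retinoids, at 42.4 ± 8.23 and 59.1 ± 13.4 TPM, and neither passed (limma adjusted p = 0.0567 and 0.145). Prom1 passed with coding transcripts only (limma adjusted p = 0.0285), with length-weighted sums (0.0411) and without control replicate 2 (0.00596), and its log2 fold change lay between 0.39 and 0.82 over the alternatives.

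Markers of other cell types also changed, and their counts stand against 10.4% of all tested genes called higher and 3.69% called lower. Among progenitor markers Ccnd1 fell from 130.0 ± 13.5 to 65.2 ± 5.41 TPM and Hes5 from 363.8 ± 28.0 to 222.3 ± 13.5 TPM, while Rax stood at 224.7 ± 43.1 and 214.9 ± 9.62 TPM. All 5 tested ganglion cell markers rose, with Gap43 from 10.6 ± 2.46 to 22.1 ± 2.50 TPM and, at a lower level, Ebf1 from 3.43 ± 0.720 to 7.62 ± 1.71 TPM, though the list summed to at most 43.3 TPM in a library. Nefl (0.506 to 1.17 TPM in control) and Isl1 (0.720 to 1.99 TPM) met the filter only through the shKmt2f libraries. The untested genes of this list had control and shKmt2f means of 0.340 and 0.231 TPM (Sncg), 0.732 and 0.858 (Rbpms), 0.0446 and 0.0664 (Pou4f2) and 0.191 and 0.424 (Pou4f1). Of the amacrine markers Tfap2b alone rose among 7 tested, and Gad2 had limma adjusted p = 0.592 and Prdm13 0.683. With coding transcripts only, Gad2 was called at a log2 fold change of 0.79 (limma adjusted p = 0.0372) and Tfap2b was not (0.0768). Of 4 tested horizontal cell markers Onecut1 and Ndnf rose, and Prox1 had limma adjusted p = 0.296. Onecut1, like Rgs9, reached 1 TPM only in shKmt2f libraries and could enter the test only by being high there. Of 6 tested markers of the bipolar list 3 rose, Otx2, Gng13 and Isl1, each also held by another list, and the defining bipolar marker Trpm1 was at most 0.131 TPM. Of 6 tested Müller glia markers Glul fell, from 258.1 ± 28.4 to 175.9 ± 5.54 TPM, and Apoe stood at 475.7 ± 78.9 and 543.9 ± 39.8 TPM. Of the pigment epithelium list Dct rose, from 3.93 ± 0.399 to 6.75 ± 0.943 TPM. Kdr, Cldn5 and C1qa, of vessels and microglia, did not pass, with limma adjusted p of 0.685, 0.488 and 0.351. Without control replicate 1, and likewise without control replicate 3, the calls of Otx2, Impg2, Gng13, Gap43, Ebf1, Tfap2b, Onecut1, Ndnf, Glul and Dct were lost, with limma adjusted p between 0.0503 and 0.112. All of these but Gap43 were also lost without shKmt2f replicate 1, and likewise without shKmt2f replicate 2, with limma adjusted p between 0.0536 and 0.102. Leaving out shKmt2f replicate 3 or 4 ended the calls of Impg2, Tfap2b, Ndnf and Dct in both cases, those of Otx2 and Glul for replicate 3 and those of Ebf1 and Onecut1 for replicate 4. Calls also ended with the GC correction for Impg2 and Ndnf (limma adjusted p = 0.0642 and 0.0597), with GC and length for these 2, Onecut1 and Glul (0.0689, 0.06, 0.0626 and 0.0822), and with coding transcripts only for Ebf1, whose log2 fold change was then 0.37 (0.0991). Median-ratio scaling ended those of Tfap2b and Dct (limma adjusted p = 0.0672 and 0.0536), the replicate block those of Tfap2b, Dct and Onecut1 (0.114, 0.107 and 0.0525), and testing without a filter that of Ndnf (0.0579). Those of Neurod1, Prdm1, Ccnd1 and Hes5 were kept without any 1 library. The part of these cell types in the phototransduction values was not tested.

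Genes whose library profile was closest to the 3 called members were found by the root mean square distance between log2(TPM + 1) values centred on each gene's mean, over 7 libraries and 9572 genes with a mean of at least 5 TPM. The closest to Gnb1 were Csrp1 and Vegfb, at 0.069 and 0.077. Gnat2 was closest to Gm10046 and Trappc2, at 0.047 and 0.059, and Cngb3 to Arfip1 and Gm10033, at 0.061 and 0.099. None of these is a gene of the lists used here.

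Sharing of sequence between the members and other genes was small. Of the 31-base words in their annotated transcripts, at most 5.32% (Sag) also occurred in a transcript of another gene, 4.57% for Pde6g, 3.65% for Gnat2, 2.48% for Gngt1, 0.514% for Gnb1 and 0 for the other 5 genes. Cngb3 overlaps Gm11877 on the same strand, which had a mean of 0.556 TPM. Gnb1, Gngt2 and Rcvrn overlap genes on the opposite strand (Gm13171, Abi3 and Glp2r), which were not analysed here. Whether the counting used strand is not given in the sources used here, so reads from overlapping genes cannot be told apart.

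**Figure D5:**
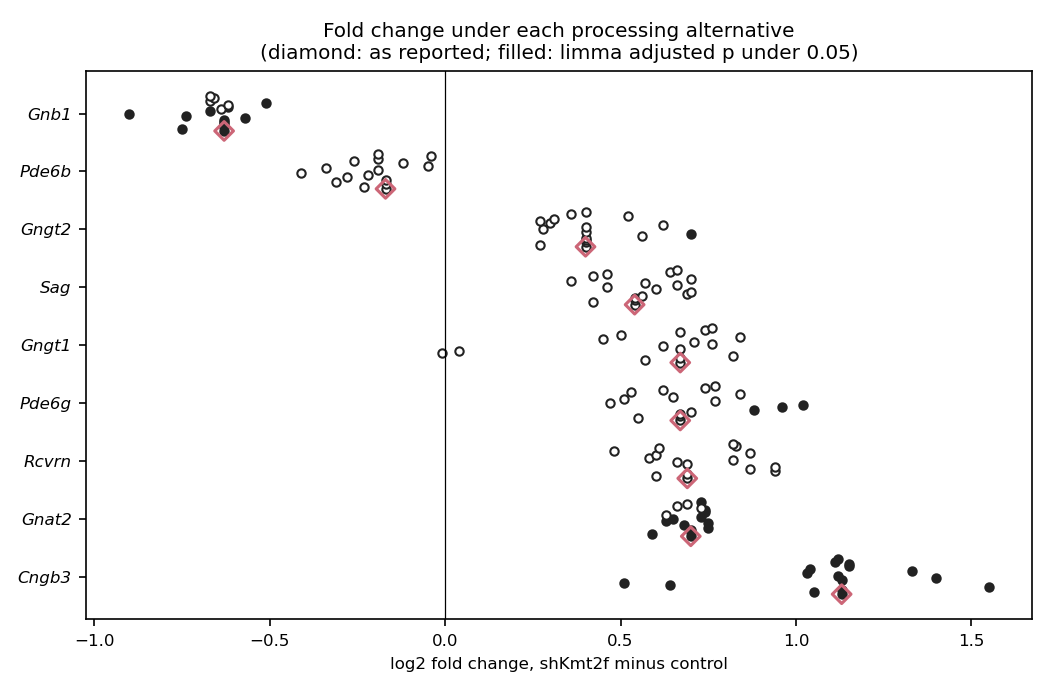
log2 fold change of each tested member, shKmt2f minus control, as reported (diamond) and under each processing alternative (circles), filled where the limma adjusted p is under 0.05. Cngb3 is filled throughout, between 0.51 and 1.55, and Gngt1 is the only member with a value on the other side of 0, at -0.01.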

How the data were processed

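Salmon 0.11.3, sleuth 0.30.0 and the build GRCm38.p6 are named in the submitters' processing notes. Each library has its own table from the authors, in which every line is a transcript and its level is in TPM, per the file headers. The p-value and q-value columns and the effect column b of each deposited table were identical in all 7 tables, and b follows the natural log difference of TPM. Of 55475 rows 71 hold no TPM. TPM totals lay between 991445 and 992309 per library, 11840 to 12318 genes had at least 1 TPM, and read depth is unknown. Transcripts typed as pseudogenes held between 24.2% and 30.9% of a library's TPM, so the share left to other transcripts varied.

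TPM was summed per gene and tested with limma 3.58.1 in R 4.3.3 (trend, robust, group as the only term) on log2(TPM + 1), over 12456 genes, or 37024 single transcripts, that reached 1 TPM in 3 or more libraries, with Benjamini-Hochberg adjustment. Single values had exact two-sided permutation tests over all 35 splits. These were on log2(TPM + 0.1) for transcripts and genes under the filter, and on log2(TPM + 1) for the Setd1a sum. Ratios and shares, which were chosen after seeing the data, were tested on their log2 values. The fit was tested on simulated data. Gene positions and transcript models are from GENCODE M21 (GRCm38), and promoters from RefSeq. The members and gene lists were chosen with earlier results of these data known. The genes named are all members, further cascade genes past the threshold and the 6 most abundant, and up to 2 passing and the 2 most abundant genes of each other list; others are values chosen after they were seen. List genes without rows were not analysed here, and some list genes are not reported here.

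Alternatives were median-ratio scaling, other filters, a pseudocount of 0.1, loess correction (span 0.3) for GC content alone or with transcript length (known for 12453 tested genes), coding transcripts only, length-weighted sums, the replicate number as a block, and leaving out each library.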

Additional observations from a re-analysis of the deposited data

Results flagged for a closer look

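Among 77 genes and transcripts examined, 5 had a shKmt2f library set apart from the other 3 of its group by more than 0.829 of the group's range, Dixon's limit for 4 samples, which chance exceeds in about 1 of 20 groups. Gnb1 was lowest in shKmt2f replicate 1, at 269.6 TPM against 372.8 to 380.2 TPM in the others. The Gngt2 transcript of 573 bases stood at 5.72 TPM in shKmt2f replicate 3, above 0, 0.709 and 0.833 TPM, and that of 629 bases at 0.980 TPM in shKmt2f replicate 4, below 2.98 to 3.32 TPM. A Pde6b transcript with a retained intron, of 4088 bases, was listed at 0 TPM in shKmt2f replicate 3. Dct, of the pigment epithelium list, was lowest in shKmt2f replicate 1, at 5.34 TPM.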

How the results depend on the processing

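Of 140 alternative fold changes of the 9 tested members, 139 kept their direction. The exception was Gngt1 at -0.01 after correction for GC content. The 3 calls among members became 5 after correction for GC content and length, adding Pde6g and Gngt2, and numbered between 1 and 3 without any 1 library. Without control replicate 1, or shKmt2f replicate 2 or 3, only Cngb3 remained called. The 2 called member transcripts numbered between 0 and 4 without any 1 library. Of the further cascade genes, the count of 1 became 0 with median-ratio scaling, when only genes averaging 5 TPM or more were tested and with the replicate block, became 2 with either GC correction and with coding transcripts only, and lay between 0 and 1 without any 1 library. Over all genes, the 1755 calls (73.8% of them higher) became 1049 after correction for GC content, 1126 after correction for GC content and length, and between 282 and 3024 without any 1 library, the highest without control replicate 2. Median-ratio scaling gave 1946 calls, 57.6% of them higher, and shifted the median of all genes by -0.11; relative to it Gnat2, Cngb3 and Gnb1 were called in the same direction.

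Uncalled values near 0 changed sign as follows: Gnb5 to -0.02 and Gad2 to -0.03 with median-ratio scaling; Pde6d to 0.09, Gnb2 to 0.11, Rax to 0.16 and Prdm13 to 0.10 with the GC correction; Pde6d to 0.16, Gnb2 to 0.23, Rax to 0.14 and Cldn5 to 0.03 with GC and length; and, without 1 library at a time, Pde6d (range -0.05 to 0.04), Rax (-0.19 to 0.09), Prdm13 (-0.18 to 0.03) and Kdr (-0.11 to 0.33). The cause of these changes was not tested. Same-numbered libraries of the groups showed correlations of 0.093, 0.067 and 0.062 across genes in their deviations from the group means. Libraries with different numbers showed correlations between -0.197 and 0.112. With deviations centred within groups of 3, these values cannot tell whether same-numbered libraries share a litter, explant or sort. With the replicate block, on replicates 1 to 3, 3 members and 1391 genes were called. TPM gives no depth, so low members such as Arr3, Pde6b and Rcvrn have no counting interval.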
